A study of Homo sapiens with 9 samples.

Results

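The genes described here are 31 genes of cholesterol synthesis and of the SREBP pathway: the enzymes that turn acetyl-CoA into cholesterol, the enzymes of fatty acid synthesis and desaturation that the same transcription factors drive, and the proteins that control those factors. They were taken by gene symbol from a list that was drawn up with earlier results of these data known, and the rule itself uses no measured value. Each was read from its probe with the highest mean in the authors' log2 table. A probe named for the gene was found for 30 of the 31. FDFT1 was not analysed here. The STARD4 probe was detected on none of the 8 arrays, so the level of this sterol carrier could not be measured. That leaves 29 genes, out of 12083 genes measured by their brightest probe and 20046 with any named probe, and 28 of the 29 were detected on all 8 arrays.

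The cells were MDA-MB-231, an established human line from an estrogen receptor-negative breast adenocarcinoma, grown in medium with foetal bovine serum, and their RNA was hybridised to 1-colour Illumina arrays. The control group was untreated. The WT knockdown received 200 pmol of siRNA against wild-type MTDH for 24 h, and the isoform knockdown received the same amount, for the same time, of siRNA against an isoform of MTDH. All samples come from 1 cell line. Labels give 3 samples per group, but control replicate 2 equalled the mean of controls 1 and 3 at all 47231 probes and was left out, so 2 control arrays and 3 arrays of each knockdown were used. Whether the replicates were cultured separately is not stated. The p-values therefore reflect spread among these arrays, and that spread may be technical. In comparisons with control, effects of transfection or of separate handling cannot be told apart from those of the siRNA. Between the knockdowns, effects of separate handling, or of either siRNA on genes other than MTDH, cannot be told apart from those of the MTDH form targeted. In bulk RNA, fewer cells expressing a gene and less RNA per cell cannot be told apart. The study asked how the 2 knockdowns change the expression profile of the cells, and how they differ from each other.

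SREBP proteins are transcription factors held in the membrane of the endoplasmic reticulum, where SCAP escorts them and INSIG proteins retain the SCAP-SREBP complex when sterols are plentiful. When sterols fall, the complex moves to the Golgi apparatus, proteases release the active factor, and it binds sterol regulatory elements beside the genes of cholesterol and fatty acid synthesis, often next to sites for NF-Y and Sp1. SREBF2 encodes the form best known for cholesterol genes and SREBF1 the forms best known for fatty acid genes. Tumour cells grown in serum both take up lipids and make them by this pathway.

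MTDH, the targeted gene, fell to 52.1% of control in the WT knockdown and to 52.3% in the isoform knockdown. Both values come from 1 probe, and whether it separates the wild-type form from the isoform was not examined. Between 20295 and 21761 of 47231 probes were detected on each array. Markers of the line (VIM, CD44, AXL, CAV1, MSN, KRT18) were detected on all arrays, and ESR1, PGR and FOXA1 on none, while GATA3, ERBB3 and KRT19, also luminal markers, were detected on all. Of the markers of other cell types, CD3E, ADIPOQ and PLIN1 were detected on no array and PTPRC on 1 of the 8, while CD14 and ALB were detected on all 8 and APOA1 on 5. Some of these markers moved with the groups. Of the 6 line markers, 3 fell in the WT knockdown by their brightest probes (CD44 at -0.80, CAV1 at -0.49 and MSN at -0.29), 1 fell in the isoform knockdown (CD44 at -0.56), and these 3 were higher in the isoform than in the WT knockdown. Of the other CD44 probes in the WT knockdown, one fell by 0.45 (adjusted p = 0.0161) and another gave 0.19 and did not pass. In the isoform knockdown these probes gave -0.11 and 0.09 and did not pass. CD14 gave 0.39 in the WT knockdown (adjusted p = 0.0269), with 1.14 by a second probe, ERBB3 gave 0.40 there (adjusted p = 0.0332), and ALB gave -0.47 between the knockdowns (adjusted p = 0.00506). The other ERBB3 probes gave 0.14 and -0.0047 in the WT knockdown and did not pass. The APOA1 probe was detected on no control array and was at least 1.35-fold higher in the isoform knockdown (adjusted p = 0.0332), a bound set by the lowest signal among detected probes. The part of these shifts in the changes below was not tested. Changes are log2 differences ± SE from limma with Benjamini-Hochberg adjusted p over all 22087 kept probes, and a gene was called at an adjusted p under 0.05. Levels are normalized log2 signals.

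Promoter sequence was available for 27 of the members, from RefSeq on GRCh38.p14, as 250 bases before to 50 bases after each annotated start. Their letters were searched on both strands for the sterol regulatory element core TCACNCCAC, the NF-Y box CCAAT and the GC box GGGCGG, which is the site of Sp1. The sterol element was found in 1 of 27 members, SREBF2, against 1.51% of 9468 measured protein-coding genes and 1.39% of all 27305 genes with such a window. CCAAT was found in 20 of 27 (74.1%), against 43.7% of the measured coding genes and 39.7% of all. GGGCGG was found in 26 of 27 (96.3%), against 76% and 48.3%. These are matches of letters and not shown sites, and elements farther from the start lie outside the window. Elements inside it that differ from the searched letters were not counted, so a gene without a match may still hold one.

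The 150 bases before the start are printed for genes whose levels are central below. These are the regulators INSIG1, SREBF1 and SREBF2, and ELOVL6, which had the lowest values in both comparisons with control. HSD17B7, with the highest value in the WT knockdown, and EBP, with the highest in the isoform knockdown, are added. Each reads 5′ to 3′ on the strand of the gene, and capitals mark matches to the 3 motifs. Neighbouring GC boxes share a base in INSIG1.
INSIG1, chr7:155297728-155297877, plus strand: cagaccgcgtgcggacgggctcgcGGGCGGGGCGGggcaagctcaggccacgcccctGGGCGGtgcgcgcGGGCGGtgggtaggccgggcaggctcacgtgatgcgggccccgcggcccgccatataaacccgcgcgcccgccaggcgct
SREBF1, chr17:17836987-17837136, minus strand: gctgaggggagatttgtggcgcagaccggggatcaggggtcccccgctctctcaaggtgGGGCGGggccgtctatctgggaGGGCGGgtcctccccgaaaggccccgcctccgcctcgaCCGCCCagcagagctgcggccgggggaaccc
SREBF2, chr22:41832955-41833104, plus strand: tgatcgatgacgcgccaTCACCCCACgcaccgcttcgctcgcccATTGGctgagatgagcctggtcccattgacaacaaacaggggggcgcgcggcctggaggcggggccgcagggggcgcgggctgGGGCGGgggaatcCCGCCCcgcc
ELOVL6, chr4:110198616-110198765, minus strand: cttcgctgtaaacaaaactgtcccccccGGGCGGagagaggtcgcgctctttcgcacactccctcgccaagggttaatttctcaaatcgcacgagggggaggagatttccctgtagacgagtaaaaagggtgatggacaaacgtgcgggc
HSD17B7, chr1:162790552-162790701, plus strand: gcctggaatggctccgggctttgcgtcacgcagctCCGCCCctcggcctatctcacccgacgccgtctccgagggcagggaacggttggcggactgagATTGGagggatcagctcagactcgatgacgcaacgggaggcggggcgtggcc
EBP, chrX:48521658-48521807, plus strand: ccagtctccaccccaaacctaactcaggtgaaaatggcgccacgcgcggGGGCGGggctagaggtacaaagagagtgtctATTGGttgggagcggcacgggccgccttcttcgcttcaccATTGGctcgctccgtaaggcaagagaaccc
Of these windows, SREBF2 alone holds an exact match to the sterol element core, as TCACCCCAC starting 133 bases before the gene. It also holds an NF-Y box starting 106 bases before the gene. EBP holds 2 NF-Y boxes and HSD17B7 1, while INSIG1, SREBF1 and ELOVL6 hold GC boxes but no NF-Y box in these 150 bases.

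In the WT knockdown, 6 of 29 members rose, 9 fell and 14 did not pass, so that 51.7% were called against 56.1% of all 12083 genes. In the isoform knockdown, 5 rose, 14 fell and 10 did not pass, 65.5% against 43.6%. Between the knockdowns, 12 of 29 differed, 5 higher and 7 lower in the isoform knockdown, 41.4% against 38.4%. By direction, the shares of all genes were 26.9% higher and 29.2% lower with the WT siRNA, 20.2% higher and 23.5% lower with the isoform siRNA, and 19.3% higher and 19.1% lower between the knockdowns. Over all kept probes, 51.2% were called in the WT knockdown (24.9% higher, 26.3% lower), 39.6% in the isoform knockdown (19.4% higher, 20.2% lower) and 33.6% between the knockdowns (17.6% higher, 15.9% lower). The median change of the members was -0.14 in the WT knockdown, -0.33 in the isoform knockdown and -0.03 between them, beside -0.01, -0.02 and 0.01 over all genes. The median in the WT knockdown was -0.0221 without control replicate 3 and -0.0817 without WT replicate 3. Between the knockdowns it ranged from -0.0962, without WT replicate 1, to -0.0294 with 1 array left out, and was also over 1.5 times its value without WT replicate 3 (-0.0601) or isoform replicate 1 (-0.0541) or 2 (-0.0552). Both comparisons with control share the same 2 control arrays. With either control left out, fewer members were called in the isoform knockdown, and fewer of all kept probes as well. The median of the members there was -0.33 without control replicate 1 and -0.36 without control replicate 3. Arrays were also scaled to a common median in place of quantile normalization. This moved the median of all probes to -0.18 with the WT siRNA and -0.13 with the isoform siRNA. The calls of members became 2 higher and 13 lower, and 2 higher and 17 lower. Those of all kept probes became 2834 higher and 7507 lower, and 2090 higher and 5539 lower. The tilt to lower calls under this scaling was thus not confined to the members. The medians of the members were then -0.42, -0.58 and, between the knockdowns, 0.0279.

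**Figure D1:**
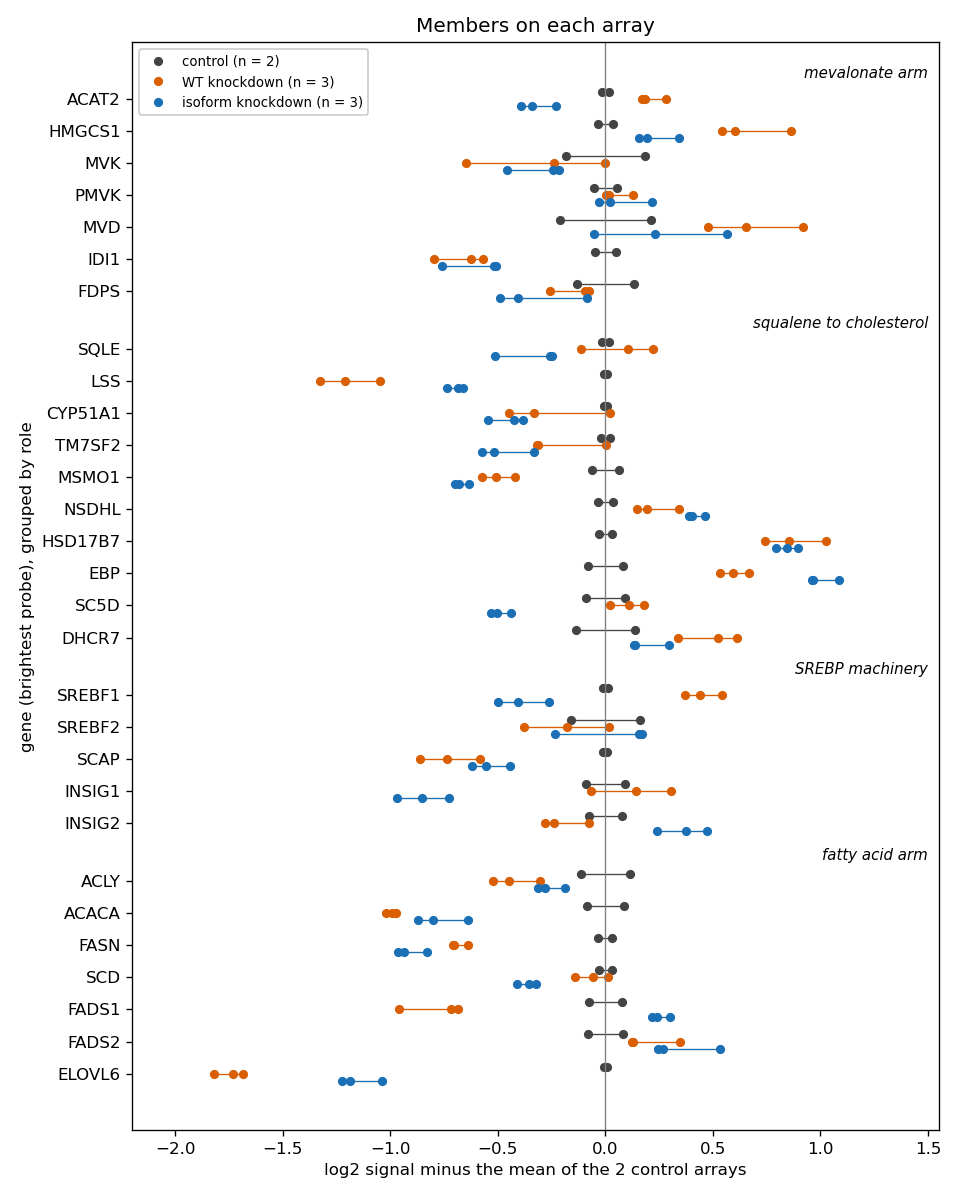
Log2 signal of each of the 29 measured members on each array, minus the mean of the 2 control arrays (x axis), with genes in rows grouped by role. Points are arrays and bars span a group; the WT knockdown arrays of ELOVL6 lie farthest left, and those of FADS1 and of INSIG1 lie apart from the isoform knockdown arrays.

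Fatty acid genes were mostly lower in both knockdowns. Of 7 in this arm, 5 fell and 0 rose in the WT knockdown, and 4 fell and 1 rose in the isoform knockdown, with medians of -0.68 and -0.36. Over all genes, 29.2% and 23.5% were called lower in these comparisons.

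ELOVL6 elongates saturated and monounsaturated fatty acids. Its levels were 10.44 and 10.42 in the controls, 8.69, 8.61 and 8.74 in the WT knockdown, and 9.24, 9.20 and 9.39 in the isoform knockdown. The 3 groups did not overlap, and the WT knockdown lay lowest. ELOVL6 fell in both knockdowns, at -1.75 ± 0.09 with the WT siRNA (adjusted p = 1.91e-06), to 29.8% of control, and -1.15 ± 0.09 with the isoform siRNA (adjusted p = 4.74e-05), to 45.0%. Its second probe gave -1.46 ± 0.10 and -0.78 ± 0.10. Between the knockdowns it was 0.59 ± 0.08 higher with the isoform siRNA (adjusted p = 0.00079), and 0.68 ± 0.09 by the second probe.

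ACACA encodes acetyl-CoA carboxylase 1, which makes the malonyl-CoA that fatty acid synthase uses. Control arrays read 9.62 and 9.45, WT knockdown arrays 8.56, 8.51 and 8.54, and isoform knockdown arrays 8.89, 8.73 and 8.67. Both knockdowns lay below both controls. ACACA fell in both knockdowns, at -0.998 ± 0.10 with the WT siRNA (adjusted p = 4.98e-05) and -0.77 ± 0.10 with the isoform siRNA (adjusted p = 0.000466), to 50.1% and 58.6% of control, and a second probe gave -0.71 ± 0.09 and -0.62 ± 0.09. FASN, fatty acid synthase itself, read 11.69 and 11.75 in controls, 11.01, 11.08 and 11.01 in the WT knockdown, and 10.78, 10.75 and 10.89 in the isoform knockdown. All 6 knockdown arrays were below the controls, with the isoform arrays lowest. FASN fell in both knockdowns, at -0.68 ± 0.09 with the WT siRNA (adjusted p = 0.000197) and -0.91 ± 0.09 with the isoform siRNA (adjusted p = 9.96e-05). The difference of -0.23 ± 0.08 between the knockdowns did not pass (adjusted p = 0.052), but passed under 7 of 20 alternatives.

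ACLY makes cytosolic acetyl-CoA from citrate, the carbon source of both arms. Its brightest probe fell by 0.43 ± 0.11 in the WT knockdown (adjusted p = 0.00864) and gave -0.26 ± 0.11 in the isoform knockdown (adjusted p = 0.0812). The second ACLY probe gave 0.03 ± 0.10 and 0.22 ± 0.10, so the fall was seen by 1 of 2 probes, and without control replicate 3 it was -0.31 (adjusted p = 0.0906). SCD, the desaturase that makes oleate, had a value of -0.06 ± 0.09 in the WT knockdown and fell by 0.36 ± 0.09 in the isoform knockdown (adjusted p = 0.0112). Without control replicate 1 that fall was -0.33 (adjusted p = 0.078).

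The desaturases FADS1 and FADS2, which make long polyunsaturated fatty acids, had their own patterns. FADS1 read 9.39 and 9.24 in the controls, 8.63, 8.60 and 8.35 in the WT knockdown, and 9.61, 9.56 and 9.53 in the isoform knockdown. The WT knockdown was low, and the isoform knockdown lay slightly above the controls. FADS1 fell by 0.79 ± 0.11 in the WT knockdown (adjusted p = 0.000302) and had a value of 0.25 ± 0.11 in the isoform knockdown (adjusted p = 0.096). Between the knockdowns it differed by 1.04 ± 0.10 (adjusted p = 9.05e-05), a level 205.6% of that in the WT knockdown, which was the widest gap among the 29 members. FADS2 ranged from 6.08 to 6.69 over the 8 arrays. It had a value of 0.20 ± 0.12 in the WT knockdown and rose by 0.35 ± 0.12 in the isoform knockdown (adjusted p = 0.0489), a call at the edge of the threshold. That call ended under 12 of 20 alternatives, among them leaving out control replicate 1 (0.27, adjusted p = 0.251), control replicate 3 (0.43, adjusted p = 0.083) or isoform replicate 3 (0.25, adjusted p = 0.134), as well as either of the other isoform replicates or WT replicate 1 or 2.

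**Figure D2:**
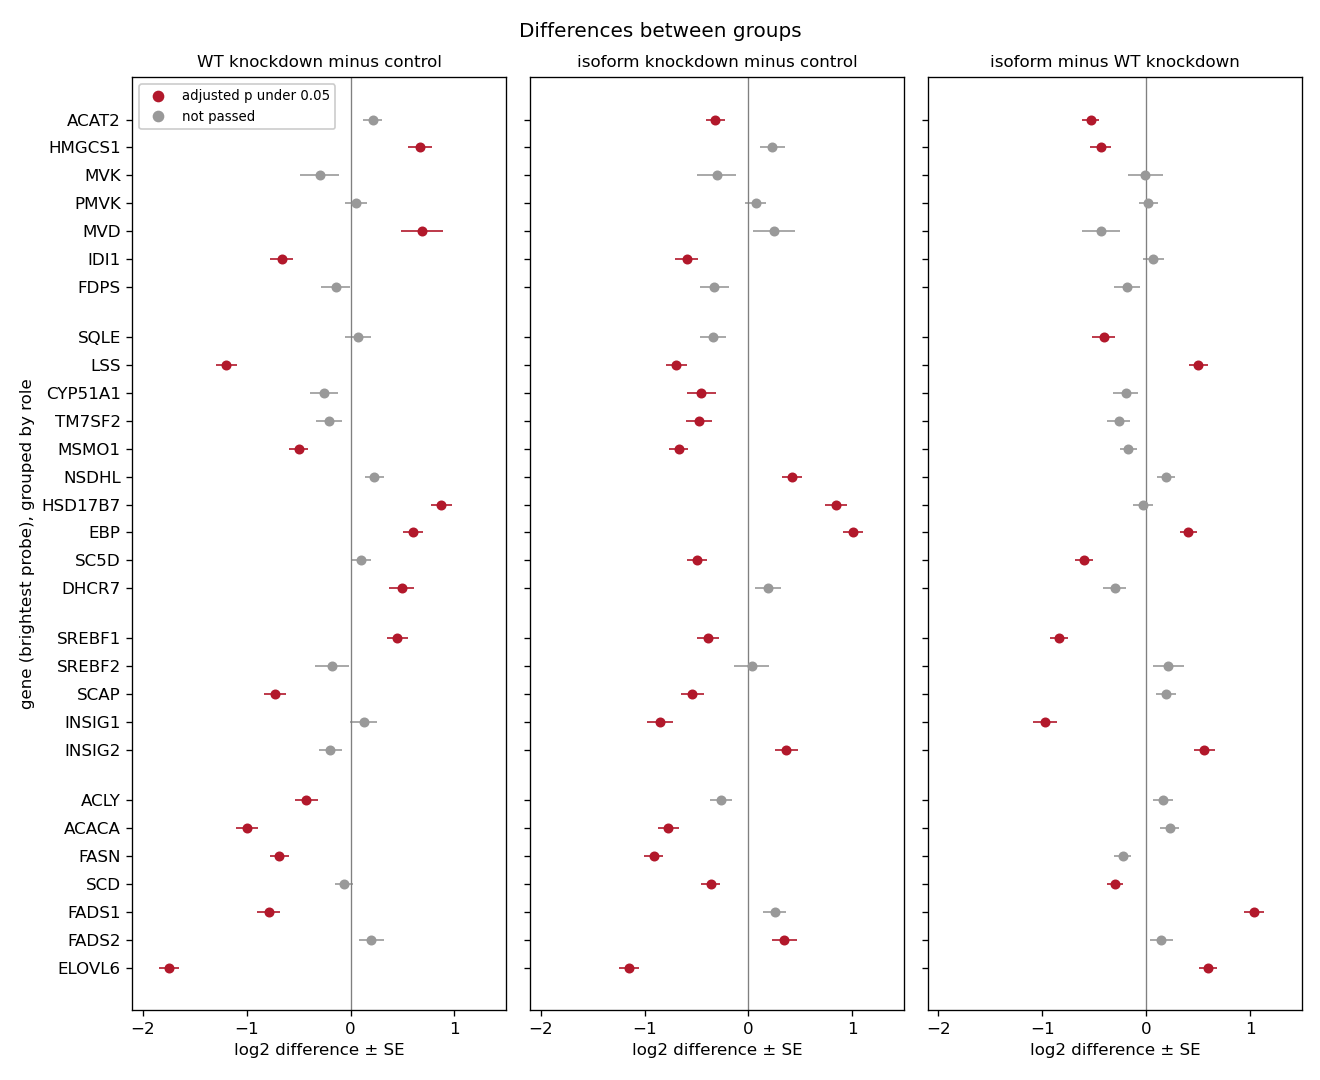
Log2 difference ± SE of each measured member in the 3 comparisons, with genes in rows grouped by role. Red points passed an adjusted p of 0.05 and grey points did not; ELOVL6 lies at -1.75 and -1.15 in the comparisons with control, and INSIG1 (-0.98) and FADS1 (1.04) lie at the ends of the third panel.

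Among the 5 genes that control SREBP, 1 rose and 1 fell in the WT knockdown, 1 rose and 3 fell in the isoform knockdown, and 3 differed between the knockdowns. The 2, 4 and 3 of 5 called stand beside 56.1%, 43.6% and 38.4% of all genes. INSIG1 encodes a retention protein that is itself an SREBP target. Its brightest probe read 10.41 and 10.22 in controls, 10.62, 10.46 and 10.25 in the WT knockdown, and 9.59, 9.34 and 9.46 in the isoform knockdown. The WT knockdown overlapped the controls, and all isoform arrays lay below both. INSIG1 had a value of 0.13 ± 0.13 in the WT knockdown (adjusted p = 0.446), fell by 0.85 ± 0.13 in the isoform knockdown (adjusted p = 0.000965), and differed by -0.98 ± 0.12 between the knockdowns, lower with the isoform siRNA (adjusted p = 0.000296).

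The second, dimmer INSIG1 probe gave another picture. It read 6.92 and 6.83 in controls, 5.75, 5.85 and 5.91 in the WT knockdown, and 6.66, 6.48 and 6.31 in the isoform knockdown. Here the WT knockdown was lowest. By this probe INSIG1 fell in both knockdowns, at -1.04 ± 0.12 with the WT siRNA (adjusted p = 8.29e-05) and -0.39 ± 0.12 with the isoform siRNA (adjusted p = 0.0239), and the isoform knockdown was 0.65 ± 0.10 higher (adjusted p = 0.00146). Both probes were lower with the isoform siRNA than in the controls. They disagreed on the WT knockdown and on the direction between the knockdowns, where the mean of both probes gave -0.17 (adjusted p = 0.192). That mean gave -0.46 in the WT knockdown (adjusted p = 0.00439). The platform annotation assigns both to the same RefSeq transcript.

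SREBF1 encodes the SREBP forms best known for fatty acid genes. Its brightest probe read 7.48 and 7.46 in controls, 7.84, 7.91 and 8.01 in the WT knockdown, and 7.06, 6.97 and 7.21 in the isoform knockdown. The groups did not overlap, with the WT knockdown above and the isoform knockdown below the controls. SREBF1 rose by 0.45 ± 0.10 in the WT knockdown (adjusted p = 0.00498), fell by 0.39 ± 0.10 in the isoform knockdown (adjusted p = 0.0143) and differed by -0.84 ± 0.09 between the knockdowns, lower with the isoform siRNA (adjusted p = 0.000189). Another SREBF1 probe gave 0.84 ± 0.18 in the WT knockdown, 0.09 ± 0.18 in the isoform knockdown and -0.75 ± 0.16 between them (adjusted p = 0.00669), so the gap between the knockdowns was seen by both probes. The fall against control ended without control replicate 1 (-0.38, adjusted p = 0.0787), without control replicate 3 (-0.40, adjusted p = 0.0644) and with the mean of the probes (-0.15, adjusted p = 0.352). Under median scaling the rise was 0.16 (adjusted p = 0.505).

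INSIG2, the other retention protein, read 8.54 and 8.38 in controls, 8.22, 8.38 and 8.18 in the WT knockdown, and 8.83, 8.70 and 8.93 in the isoform knockdown. Its isoform arrays were the highest, opposite to those of the brightest INSIG1 probe. INSIG2 had a value of -0.20 ± 0.11 in the WT knockdown, rose by 0.36 ± 0.11 in the isoform knockdown (adjusted p = 0.0268) and was 0.56 ± 0.10 higher in the isoform than in the WT knockdown (adjusted p = 0.00233). The rise against control ended without control replicate 1 (0.44, adjusted p = 0.0535), control replicate 3 (0.28, adjusted p = 0.174), isoform replicate 1 (0.36, adjusted p = 0.0602) or isoform replicate 3 (0.31, adjusted p = 0.0786), and under median scaling (0.09, adjusted p = 0.752).

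SCAP, the escort protein, read 10.15 and 10.17 in controls, 9.30, 9.58 and 9.43 in the WT knockdown, and 9.54, 9.61 and 9.72 in the isoform knockdown. Every knockdown array was below the controls, while the knockdowns overlapped each other. SCAP fell in both knockdowns, at -0.73 ± 0.11 with the WT siRNA (adjusted p = 0.000408) and -0.54 ± 0.11 with the isoform siRNA (adjusted p = 0.00372), to 60.4% and 68.8% of control. SREBF2 was near background. Its probe read 5.05 and 5.37 in controls, 5.23, 5.03 and 4.83 in the WT knockdown, and 5.38, 5.37 and 4.98 in the isoform knockdown, and 1 WT array did not detect it. The groups overlapped, and the differences of -0.18 ± 0.17, 0.03 ± 0.17 and 0.21 ± 0.15 did not pass. At this signal a modest difference in SREBF2 was not detectable.

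The mevalonate arm runs from acetyl-CoA to farnesyl diphosphate. Of its 7 genes, 2 rose and 1 fell in the WT knockdown, against 0 and 2 in the isoform knockdown. These shares, 42.9% and 28.6%, were below the 56.1% and 43.6% of all genes called. HMGCS1, the synthase that makes HMG-CoA and a classic SREBP target, read 8.36 and 8.29 in controls, 8.93, 9.18 and 8.87 in the WT knockdown, and 8.67, 8.48 and 8.52 in the isoform knockdown. The groups did not overlap, and the WT knockdown was highest. HMGCS1 rose by 0.67 ± 0.12 in the WT knockdown (adjusted p = 0.00111), had a value of 0.23 ± 0.12 in the isoform knockdown (adjusted p = 0.144) and differed by -0.44 ± 0.10 between the knockdowns, lower with the isoform siRNA (adjusted p = 0.0106). Median scaling gave 0.35 (adjusted p = 0.117) for the rise and -0.38 (adjusted p = 0.0961) between the knockdowns.

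MVD, the decarboxylase that makes isopentenyl diphosphate, read 5.62 and 6.04 in controls, 6.31, 6.75 and 6.48 in the WT knockdown, and 6.06, 5.78 and 6.40 in the isoform knockdown. The WT arrays lay above the controls, and the isoform arrays overlapped both groups. MVD rose by 0.68 ± 0.20 in the WT knockdown (adjusted p = 0.0183) and had a value of 0.25 ± 0.20 in the isoform knockdown. Without control replicate 1 the rise was 0.47 (adjusted p = 0.157) and without WT replicate 2 it was 0.56 (adjusted p = 0.0562). IDI1, the isomerase at the next step, read 8.44 and 8.54 in controls, 7.69, 7.92 and 7.86 in the WT knockdown, and 7.98, 7.73 and 7.97 in the isoform knockdown. Both knockdowns were below the controls and overlapped each other. IDI1 fell in both knockdowns, at -0.66 ± 0.11 with the WT siRNA (adjusted p = 0.00103) and -0.59 ± 0.11 with the isoform siRNA (adjusted p = 0.00317), and the difference of 0.07 ± 0.10 between the knockdowns did not pass.

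ACAT2, the cytosolic thiolase at the entry to the pathway, was lower in the isoform than in the WT knockdown by its brightest probe, at -0.53 ± 0.08 (adjusted p = 0.00118). It had a value of 0.21 ± 0.09 in the WT knockdown and fell by 0.32 ± 0.09 in the isoform knockdown (adjusted p = 0.0214), a call that ended without either control (-0.30, adjusted p = 0.108, without replicate 1, and -0.34, adjusted p = 0.0809, without replicate 3) and without isoform replicate 2 (-0.28, adjusted p = 0.0614) or 3 (-0.31, adjusted p = 0.0544). A dim second ACAT2 probe gave 0.03 ± 0.19 between the knockdowns. The kinases MVK and PMVK and the farnesyl diphosphate synthase FDPS passed in no comparison. Their differences from control lay between -0.33 for FDPS in the isoform knockdown (adjusted p = 0.0921) and 0.07 for PMVK. That FDPS difference passed under 7 of 20 alternatives.

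From squalene to cholesterol, some enzymes rose while others fell. Of 10 measured genes, 3 rose and 2 fell in the WT knockdown, and 3 rose and 5 fell in the isoform knockdown, where 8 of 10 were called. Of all genes 56.1% and 43.6% were called, so the 5 of 10 in the WT knockdown lay near the background. LSS, which closes squalene epoxide into lanosterol, read 9.17 and 9.19 in controls, 8.13, 7.97 and 7.85 in the WT knockdown, and 8.52, 8.44 and 8.50 in the isoform knockdown. The groups did not overlap, and the WT knockdown was lowest, the same order as for ELOVL6. LSS fell in both knockdowns, at -1.20 ± 0.10 with the WT siRNA (adjusted p = 1.81e-05) and -0.70 ± 0.10 with the isoform siRNA (adjusted p = 0.000767), to 43.6% and 61.8% of control, and was 0.50 ± 0.09 higher in the isoform than in the WT knockdown (adjusted p = 0.00272). Its other 2 probes were dim and passed in no comparison, and the mean of the 3 probes gave -0.24 in the isoform knockdown (adjusted p = 0.121) and 0.18 between the knockdowns (adjusted p = 0.22).

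MSMO1, the methyl sterol oxidase, read 9.63 and 9.51 in controls, 9.06, 9.00 and 9.15 in the WT knockdown, and 8.93, 8.87 and 8.89 in the isoform knockdown. Both knockdowns were below the controls. It fell in both knockdowns, at -0.50 ± 0.09 with the WT siRNA (adjusted p = 0.00149) and -0.67 ± 0.09 with the isoform siRNA (adjusted p = 0.000542). A second probe gave -0.80 ± 0.13 and -0.62 ± 0.13, and another, dimmer one 0.09 ± 0.13 and 0.27 ± 0.13.

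HSD17B7, a 3-ketosteroid reductase of the pathway, rose in both knockdowns. It read 9.81 and 9.75 in controls, 10.52, 10.63 and 10.81 in the WT knockdown, and 10.57, 10.68 and 10.63 in the isoform knockdown. The knockdown arrays all lay above the controls and overlapped each other. HSD17B7 rose by 0.87 ± 0.10 with the WT siRNA (adjusted p = 0.000123) and by 0.84 ± 0.10 with the isoform siRNA (adjusted p = 0.00033), to 183.3% and 179.6% of control. The gene has a near-identical pseudogene copy, so which of them the probe measured is uncertain. EBP, the sterol isomerase, read 9.72 and 9.88 in controls, 10.39, 10.47 and 10.33 in the WT knockdown, and 10.77, 10.76 and 10.89 in the isoform knockdown. The groups did not overlap, with the isoform knockdown highest. EBP rose by 0.60 ± 0.10 with the WT siRNA (adjusted p = 0.000721) and by 1.00 ± 0.10 with the isoform siRNA (adjusted p = 9.55e-05), and was 0.41 ± 0.09 higher in the isoform than in the WT knockdown (adjusted p = 0.00604). Median scaling gave 0.24 in the WT knockdown (adjusted p = 0.3).

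SC5D, the desaturase of the sterol ring, read 8.51 and 8.69 in controls, 8.62, 8.71 and 8.78 in the WT knockdown, and 8.07, 8.10 and 8.16 in the isoform knockdown. Only the isoform arrays stood apart, below the other 5. SC5D had a value of 0.10 ± 0.10 in the WT knockdown, fell by 0.49 ± 0.10 in the isoform knockdown (adjusted p = 0.00362), and differed by -0.60 ± 0.09 between the knockdowns (adjusted p = 0.000869). SQLE, the epoxidase that commits squalene to sterols, also differed between the knockdowns, at -0.41 ± 0.11 (adjusted p = 0.0197), with -0.41 ± 0.14 by a second probe (adjusted p = 0.0529). The SQLE difference was -0.39 without WT replicate 1 (adjusted p = 0.0552), -0.34 without WT replicate 2 (adjusted p = 0.0686) and -0.32 without isoform replicate 2 (adjusted p = 0.0685).

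CYP51A1, the lanosterol demethylase, and TM7SF2, a sterol reductase, fell in the isoform knockdown, at -0.45 ± 0.14 (adjusted p = 0.0265) and -0.47 ± 0.12 (adjusted p = 0.0143), and gave -0.25 ± 0.14 and -0.21 ± 0.12 in the WT knockdown. Without control replicate 1 or 3, CYP51A1 gave -0.46 (adjusted p = 0.103) and -0.45 (adjusted p = 0.11), and TM7SF2 -0.45 (adjusted p = 0.0804) and -0.49 (adjusted p = 0.0608). The CYP51A1 call also ended without isoform replicate 2 (-0.40, adjusted p = 0.0734) or 3 (-0.47, adjusted p = 0.0513). NSDHL, a sterol dehydrogenase, rose by 0.42 ± 0.09 in the isoform knockdown (adjusted p = 0.00678), and gave 0.38 without control replicate 3 (adjusted p = 0.0556) and 0.15 under median scaling (adjusted p = 0.569). DHCR7, the reductase of the last step, rose by 0.49 ± 0.12 in the WT knockdown (adjusted p = 0.00797), and by 0.83 ± 0.09 by its second probe (adjusted p = 7.92e-05). In the isoform knockdown the brightest probe gave 0.19 ± 0.12 (adjusted p = 0.248), while the second rose by 0.52 ± 0.09 (adjusted p = 0.00215). Between the knockdowns they gave -0.30 ± 0.11 (adjusted p = 0.0599) and -0.31 ± 0.08 (adjusted p = 0.0168), and DHCR7 passed there under 8 of 20 alternatives. For the brightest DHCR7 probe the rise in the WT knockdown was 0.35 without control replicate 1 and 0.15 under median scaling (adjusted p = 0.531).

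**Figure D3:**
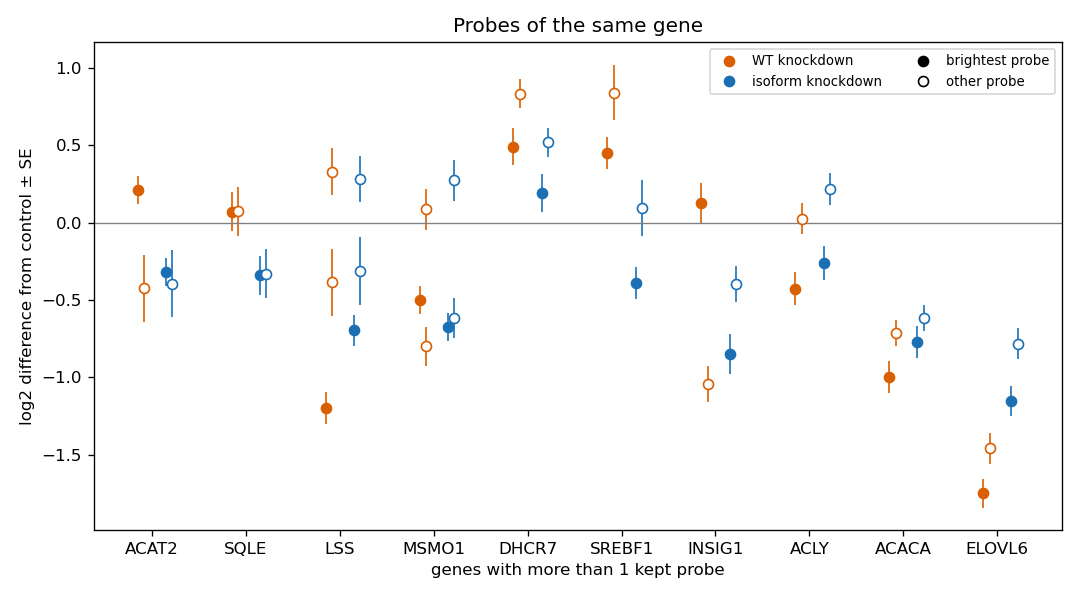
Log2 difference from control ± SE (y axis) for every kept probe of the 10 members with more than 1 kept probe. Filled points are the brightest probe and open points the others; the probes of ELOVL6, ACACA and SQLE lie on the same side of 0 as each other within each knockdown (WT orange, isoform blue), while the 2 probes of INSIG1 lie at 0.13 and -1.04 in the WT knockdown.

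The comparison of the knockdowns with each other does not rest on the controls, apart from the shared normalization and estimate of the spread. For the members that differed here, the limits of separate handling and of different siRNAs remain. By their brightest probes, those lower in the isoform knockdown were INSIG1 (-0.98, against 0.65 by its other probe), SREBF1 (-0.84), SC5D (-0.60), ACAT2 (-0.53), HMGCS1 (-0.44), SQLE (-0.41) and SCD (-0.30 ± 0.08, adjusted p = 0.0182). Higher were FADS1 (1.04), ELOVL6 (0.59), INSIG2 (0.56), LSS (0.50) and EBP (0.41). The SCD difference ended without WT replicate 2 (-0.26, adjusted p = 0.0637) or isoform replicate 3 (-0.28, adjusted p = 0.0603) and under median scaling (-0.23, adjusted p = 0.37), which also ended those of SQLE (-0.34, adjusted p = 0.151) and HMGCS1 (-0.38, adjusted p = 0.0961). For MTDH itself the difference was 0.00 ± 0.10 by its only probe, which may not separate the 2 forms targeted.

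**Figure D4:**
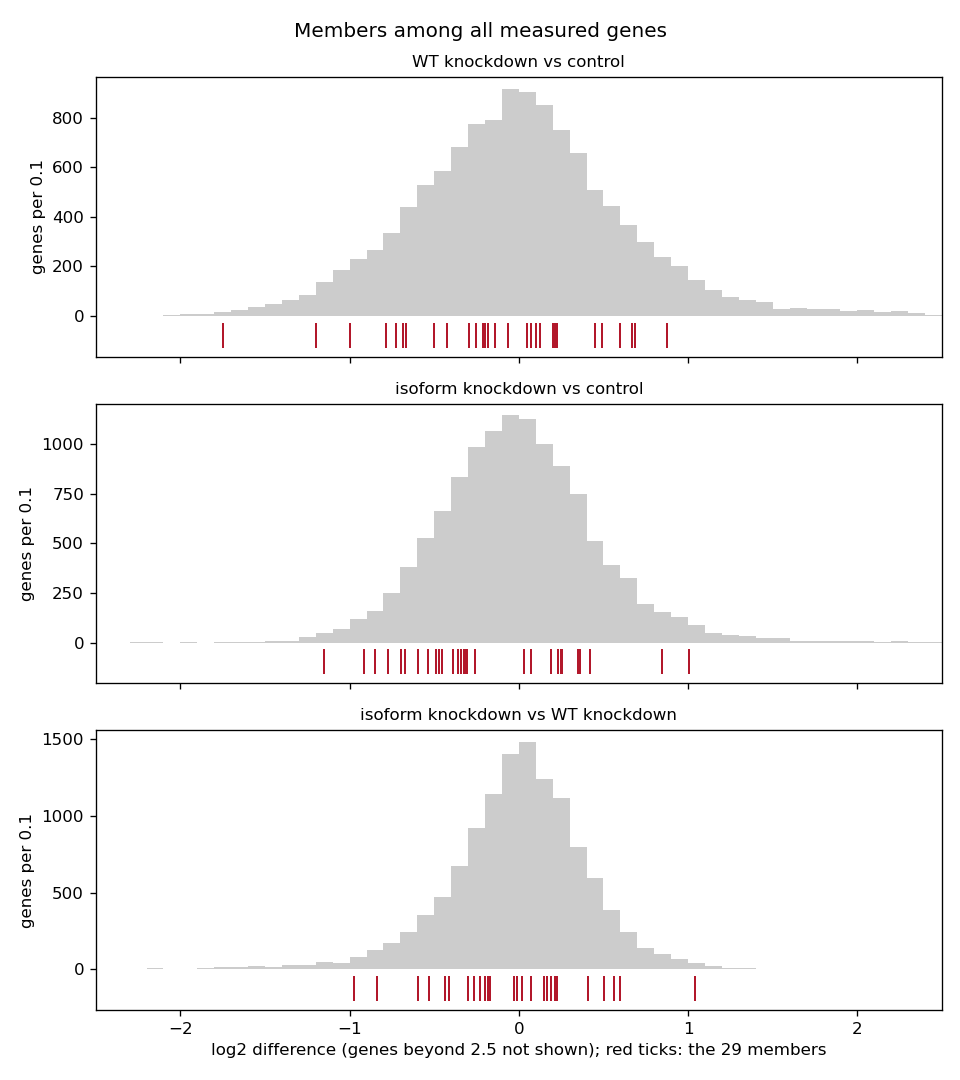
Number of genes in each 0.1 step of log2 difference (grey bars, 12083 genes by their brightest probe) in the 3 comparisons, with the 29 members as red ticks under the bars and with other genes beyond 2.5 in size not drawn. The members spread over both sides of 0 in all 3 panels, from -1.75 to 0.87, from -1.15 to 1.00 and from -0.98 to 1.04.

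A list of 40 other genes of sterol transport, SREBP processing and lipid handling was set beside the members, of which 34 had a probe and 33 were measured. In the WT knockdown 10 rose and 10 fell (60.6% called), in the isoform knockdown 6 rose and 9 fell (45.5%), and between the knockdowns 8 were higher and 4 lower in the isoform knockdown (36.4%). Over all genes the shares called were 56.1%, 43.6% and 38.4%, so those of this list were near the background. The medians of the list were -0.03, -0.0015 and 0.02. ANGPTL4, which restrains lipoprotein lipase outside the cell, gave 3.07 ± 0.10 and 3.62 ± 0.10 by its brightest probe, and 1.03 ± 0.13 and 1.82 ± 0.13 by another. PLIN2, a coat protein of lipid droplets, rose by 0.87 ± 0.09 with the WT siRNA (adjusted p = 5.07e-05) and by 1.73 ± 0.09 with the isoform siRNA (adjusted p = 3.79e-06), and differed by 0.87 ± 0.08 between them.

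The genes with the smallest adjusted p beside those were of several kinds. ERLIN2, a membrane protein that takes part in the turnover of endoplasmic reticulum proteins, fell by 1.03 ± 0.11 in the WT knockdown by its brightest probe, while its other 2 probes gave -0.11 and -0.51 and did not pass, and the phosphatidate phosphatase LPIN1 fell in both knockdowns, at -0.68 ± 0.09 and -0.62 ± 0.09. ERLIN2 also fell in the isoform knockdown by its brightest probe, at -0.62 ± 0.11. There its other 2 probes gave 0.20 and -0.01 and did not pass. NR1H3, the sterol-sensing receptor LXR-alpha, fell in both knockdowns, at -0.81 ± 0.11 and -0.57 ± 0.11. SLC25A1, the citrate carrier that feeds ACLY, and GPAM, the first acyltransferase of glycerolipid synthesis, were higher in the WT knockdown than in control, by 0.54 ± 0.09 and 0.68 ± 0.11, and lower in the isoform than in the WT knockdown, at -0.57 ± 0.08 and -0.84 ± 0.10. The other GPAM probe gave 0.18 ± 0.12 against control, which did not pass, and -0.77 ± 0.10 between the knockdowns. In the isoform knockdown the lysosomal sterol carrier NPC2 rose by 0.73 ± 0.10, CPT1A, which brings fatty acids into mitochondria for oxidation, rose by 0.68 ± 0.11, and the acyl-CoA synthetase ACSL1 fell by 0.76 ± 0.10. In the WT knockdown NPC2 gave 0.20 ± 0.10 and did not pass, CPT1A rose by 0.35 ± 0.11 and ACSL1 fell by 0.52 ± 0.10. The other 2 CPT1A probes gave 0.40 ± 0.15 (adjusted p = 0.0582) and -0.11 ± 0.19 (adjusted p = 0.699) in the isoform knockdown. LIPA, the lysosomal lipase that frees cholesterol from its esters, was 0.53 ± 0.09 higher in the isoform than in the WT knockdown.

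**Figure D5:**
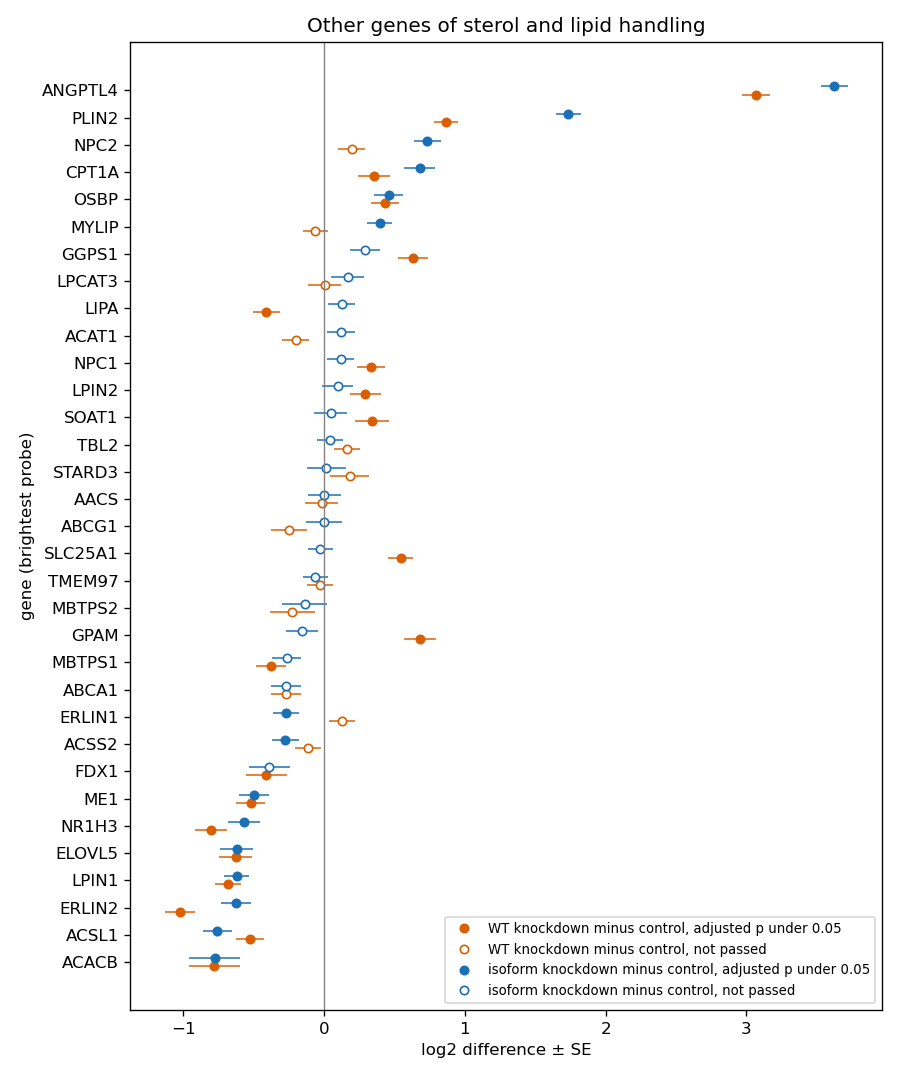
Log2 difference from control ± SE (x axis) of the 33 measured genes of sterol transport, SREBP processing and lipid handling outside the member list, in rows ordered by the isoform knockdown. Filled points passed an adjusted p of 0.05 and open points did not; ANGPTL4 (3.07 and 3.62) and PLIN2 (0.87 and 1.73) lie farthest right.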

How the data were processed

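The deposited signal table gives, per the file headers, signal intensity with a detection p-value at 47231 probes on 9 arrays. The authors' second table holds log2 values with nearly the same distribution on every array. Per the submitters' processing notes, R 3.1.0 is listed without a role; other software is not given in the sources used here. Control replicate 2 equalled the mean of controls 1 and 3 and was left out. The knockdown signals were in a different order from the probe IDs (rank correlation with the authors' log2 values from -0.00219 to 0.000506) and were put back by their ranks on the 6 knockdown arrays, which matched 47231 of 47231 rows to 1 probe each, so the authors' log2 table fixes which probe each knockdown value belongs to.

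Signals were processed with neqc (offset 16) in limma 3.58.1 under R 4.3.3. Probes with a detection p under 0.05 on 3 or more of the 8 arrays were kept, 22087 in all, and group means fitted with limma (5 residual and 4.28 prior degrees of freedom), adjusting by Benjamini-Hochberg over all kept probes. The median SD for controls, WT knockdown and isoform knockdown was 0.0843, 0.124 and 0.117, and the number of arrays limits precision. Symbols came from the platform annotation (30113 probes with 1 symbol, 8 with several, 17110 with none) and were updated by gene ID through RefSeq of GRCh38.p14. The members, the list of other genes and the rules were chosen with earlier results of these data known. Values on every array are given for the 5 regulators and for members called with at least 1.5-fold change in any comparison; of the other genes, up to 6 per comparison with the smallest adjusted p are named. The fit was tested on simulated data.

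Alternatives changed the background correction, scaling, filter, variance model or probe choice, or used the authors' log2 values, control replicate 2 kept, a replicate block, only the groups compared, and each replicate left out.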

Additional observations from a re-analysis of the deposited data

How the results depend on the processing

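Each of the 29 genes was recomputed under up to 20 alternatives in 3 comparisons, and 1606 of these values kept their side of the threshold and, where called, their direction, 58 lost the call and 72 gained one. The only reversal was INSIG1 in the WT knockdown, where the mean of both kept probes gave -0.46 (adjusted p = 0.00439) in place of 0.13; the cause was not tested. Leaving out 1 array gave 13 to 16 called members in the WT knockdown, 12 to 20 in the isoform knockdown and 10 to 13 between the knockdowns, and 8637 to 11225, 5525 to 8980 and 5940 to 6930 called probes, in place of 11299, 8743 and 7417. The lowest counts for the isoform knockdown came without control replicate 1 (5525 probes) and without control replicate 3 (5732 probes), which leave 1 control, assumed to vary like the other groups. Median scaling gave 4913 probes between the knockdowns, 3040 higher and 1873 lower, and the cause was not tested. Whether replicate numbers pair the samples is not stated. Deviations of same-numbered knockdown arrays correlated at -0.008, -0.029 and 0.000, which cannot show whether these arrays were cultured or handled together. A replicate block gave 15, 16 and 12 called members in the WT knockdown, the isoform knockdown and between them. Probes not detected, among them that of STARD4, could not be measured, and SREBF2 lay close to background.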
